A study of Mus musculus with 12 samples.

Results

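Aminoacyl-tRNA synthetases are the enzymes that attach each amino acid to its transfer RNA. Their transcripts were taken as every entry of the expression table with a symbol made of a one-letter amino acid code followed by ars or ars2. The codes F and P were left out of this pattern. Eprs and the phenylalanine enzymes Farsa, Farsb and Fars2 were added. This gave 32 of 11298 genes. They comprised 16 genes for cytoplasmic enzymes, 14 for mitochondrial enzymes and 2, Gars and Kars, whose products serve both compartments. Hars2, Nars2, Vars and Yars were not analysed here.

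The study sequenced polyadenylated RNA by Smart-seq2, a full-length method primed with oligo-dT, in wild-type (WT) and Pabpn1l knockout (KO) mice of the C57BL/6 strain background. The 6 groups were germinal vesicle (GV) oocytes, 1-cell embryos and 2-cell embryos of each genotype, with 2 libraries a group and 10 oocytes or embryos pooled in each library. The oocytes came directly from mice, whereas embryos were grown in KSOM medium. The labels give no knockout allele, no age and no matings, and do not say whether KO means the mother, the embryo or both, or whether the libraries of a group came from separate mice, so the p-values rest on a spread between libraries that may be technical only. The design asks how these transcripts change from oocyte to embryo with and without Pabpn1l. Its product, made in oocytes, binds the poly(A) tails of messenger RNA. The libraries were primed with oligo-dT on these tails, so a change of tail length and of transcript amount cannot be told apart.

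Each synthetase recognises one amino acid and the matching transfer RNAs, and the charged transfer RNA is then carried to the ribosome by an elongation factor. In the cytoplasm of animal cells, 8 of the enzymes measured here, encoded by Eprs, Iars, Lars, Mars, Qars, Rars, Kars and Dars, assemble with the scaffold proteins AIMP1, AIMP2 and AIMP3 (gene Eef1e1) into the multisynthetase complex. Mitochondria have enzymes of their own, imported from the cytoplasm and mostly named with a final 2. A mouse oocyte stores transcripts made during growth, and most of this store is degraded between meiotic maturation and the 2-cell stage, when the embryo's own genome takes over transcription.

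Values were deposited as FPKM, fragments per kilobase of transcript scaled to the mapped fragments of the library, so levels can be compared between genes per transcript length. No value was under 1 FPKM, called the floor here, and a gene at the floor is only known to be at or below it. The 8 embryo columns, unlike the oocyte columns, had been multiplied by a constant that can be read from the digits of the values. This library factor was 0.269 and 0.212 in WT and 0.432 and 0.552 in KO 1-cell embryos, and 0.116 and 0.123 in WT and 0.13 and 0.121 in KO 2-cell embryos. What the factor was based on is not given in the sources used here. Results are on the deposited scale unless stated. Values divided by the factor are referred to as before the factor, and there the libraries of a stage share 1 floor, of 4.71 FPKM at the 1-cell and 8.61 FPKM at the 2-cell stage. Over the 6227 genes that exceeded the floor in each of the 4 libraries of 1-cell embryos, KO was above WT by a median of 1.05 on the log2 scale as deposited and 0.02 before the factor, so 1-cell differences are read against that shift.

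Pabpn1l itself measured 220 and 204 FPKM in WT GV libraries and 7.23 and 4.98 in KO GV libraries. Oocyte marker transcripts, a list of 12 genes such as Gdf9 and Bmp15, were all above the floor in the 4 GV libraries and summed to 17650 to 19340 FPKM there. In 2-cell embryos they summed to 1026 and 1003 FPKM in WT and 1969 and 2028 FPKM in KO. Of 13 transient 2-cell-stage markers, 12 were above the floor in each WT 2-cell library, and 11 and 4 were in the KO 2-cell libraries. In each GV library 10 of the 13 were at the floor, yet the list summed to 494 to 587 FPKM there. It summed to 54.2 and 63.5 FPKM in WT and 28.3 and 19.5 FPKM in KO 2-cell embryos. Arg2 and Dppa2 averaged 386.8 and 141.5 FPKM in WT GV oocytes and 8.14 and 10.75 FPKM in WT 2-cell embryos. Markers of cumulus and granulosa cells (6 genes), sperm (4 genes) and blood (7 genes) summed to at most 87.4, 107 and 22.1 FPKM in any library. The ribosomal RNA precursor Rn45s was at the floor in the 4 WT embryo libraries and between 1325 and 4838 FPKM in the 4 KO embryo libraries. The part of these differences in the results below was not tested.

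Because the knocked-out gene encodes a protein that binds poly(A) tails, the 3′ ends of 5 members described below are shown first. Each sequence is 30 bases of a GENCODE M21 transcript (genome build GRCm38), written 5′ to 3′ on the transcript strand and ending with the polyadenylation signal in capitals. In Kars a cytoplasmic polyadenylation element is also in capitals. Such elements are bound by CPEB proteins and control tail length of stored oocyte messages.
Qars: cttcagcactccacactccgtttcAATAAA
Iars: atttgatggaatattttacgtttgATTAAA
Dars: ttaccagtcctgaggctgagattcAATAAA
Wars: cttgcatcatttttaggaaaaaacAATAAA
Kars: agttctTTTTATtcctcgttaccaAATAAA
Qars, Iars, Wars and Dars had the largest deposited differences between KO and WT at the 1-cell stage among members with a signal in the window searched, and Wars did not pass the test on values taken before the authors' factor. Kars was lower in KO at the 2-cell stage. The signal AATAAA or ATTAAA lay in the last 40 bases of 20 of 32 synthetase transcripts (62.5%) and of 76.8% of 9613 matched genes. Rars, Rars2 and Sars were among the 12 without it in this window. The element TTTTAT or TTTTAAT lay in the last 100 bases of the 3′ untranslated region in 7 of 32 transcripts (21.9%) and in 19.4% of matched genes. The 7 were Aars, Farsa, Kars, Lars, Mars2, Rars2 and Sars. The median 3′ untranslated region was 288 bases in the synthetases and 916 bases over all matched genes. These matches describe the annotated sequences and show no binding.

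In GV oocytes the cytoplasmic enzymes were well represented and most mitochondrial ones were near the floor. Lars2, the mitochondrial leucine enzyme, was the most abundant member, at 400.0 and 475 FPKM in the WT and 232 and 510 FPKM in the KO libraries. Its 3′ untranslated region shares a stretch with another gene, Gm15564, and how many of its reads came from there was not tested. Among cytoplasmic genes Qars (glutamine) measured 181 and 141 FPKM in WT, Farsb (the beta subunit of the phenylalanine enzyme) 156 and 156 FPKM, Rars (arginine) 133 and 130 FPKM and Iars (isoleucine) 107 and 95.7 FPKM. Farsb, Rars and Iars did not overlap with each other in WT oocytes, whereas the range of Qars covered that of Farsb. Nars (asparagine), at 82.8 and 67.7 FPKM, and Dars (aspartate), at 46.9 and 49.6 FPKM, followed. The lowest cytoplasmic genes, Aars (alanine), Mars (methionine) and Lars (leucine), lay between 5.47 and 7.91 FPKM in the WT libraries. Of the 14 mitochondrial genes, Fars2 (51.7 and 54.9 FPKM) and Rars2 (35.6 and 38.2 FPKM) stood next to Lars2. The other 11 lay between 1 and 9.17 FPKM, and several of them, such as Vars2, Iars2 and Wars2, reached at most 2.02 FPKM.

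**Figure D1:**
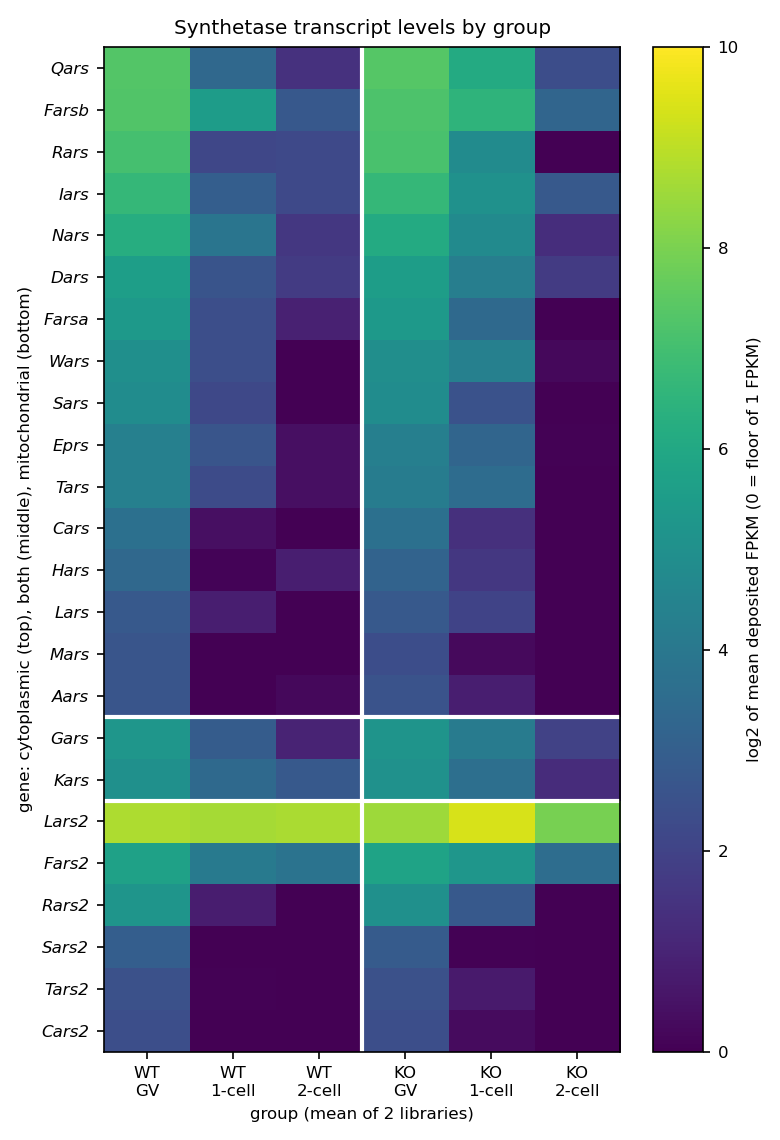
Mean deposited level in the 6 groups of the 24 synthetase transcripts with a mean of at least 5 FPKM in WT GV oocytes, as log2 of the mean FPKM of 2 libraries (colour scale, 0 is the floor of 1 FPKM). Rows are genes, cytoplasmic at the top, those serving both compartments in the middle and mitochondrial at the bottom, ordered by level in WT GV oocytes; Lars2 stays bright in every column and Rars is at the floor in KO 2-cell embryos only.

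Few synthetase transcripts passed the test between genotypes in the oocyte. None was higher in KO than in WT GV oocytes (0.584% of all genes were), and 1 was lower (1.04% of all genes). The 1 gene was Iars2, the mitochondrial isoleucine enzyme, at 1.49 and 1.41 FPKM in WT and 1 and 1.1 FPKM in KO (log2 fold change −0.26 ± 0.04 SE, limma adjusted p = 0.0123), a difference between values at or just above the floor. Iars2 was at the floor in every embryo library, and these add no spread to the shared fit, so its SE and p may be too small. By limma, 2 members had an unadjusted p under 0.05. The factor is 1 in oocytes, and the fit to values before the factor gave the same 1 gene (0.876% of all genes higher and 1.69% lower). Quantile normalization gave 0 members (0.00885% of all genes in each direction), as did 1 common floor for all stages (0.0531% higher and 0.0797% lower). The median log2 difference of the 32 members was −0.05, beside −0.02 over all genes. Qars, at 174 and 153 FPKM in KO, overlapped with WT. Both KO libraries of Rars, at 149 and 134 FPKM, were above WT by a margin that did not pass the test (0.10 ± 0.19, limma adjusted p = 1).

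From the GV oocyte to the WT 1-cell embryo 28 of 32 synthetase transcripts fell, and none rose, on the deposited scale, beside 85.8% of all genes falling and 0.0354% rising. Before the factor the same stages gave 11 members higher and 11 lower (43.1% and 28.8% of all genes). With 1 common floor for all stages 2 were higher and 8 lower (8.67% and 21.1%), and with quantile normalization 10 were higher and 9 lower (33.4% and 23.8% of all genes). Of the 11 higher before the factor, 8 were at the floor in both WT 1-cell libraries, as were 4 of the 10 higher with quantile normalization. The 8 members that fell under both scales with the common floor were also the 8 with the largest deposited falls. Rars fell most, from 133 and 130 FPKM to 5.1 and 3.57 FPKM, which is 3.3% of the oocyte mean (log2 fold change −4.65 ± 0.19 SE, limma adjusted p = 8.734e-08, and −2.81 before the factor). Rars2, the mitochondrial arginine enzyme, fell from 35.6 and 38.2 FPKM to 2.28 and 1.19 FPKM (−3.82 ± 0.25, adjusted p = 6.915e-07). Both arginine enzymes were thus at less than 5% of their oocyte mean. Qars fell from 181 and 141 FPKM to 10.6 and 10.4 FPKM (−3.80 ± 0.34, adjusted p = 5.177e-06). Iars fell from 107 and 95.7 FPKM to 9.03 and 6.79 FPKM (−3.53 ± 0.21, adjusted p = 4.603e-07). Dars, Farsa (the alpha subunit of the phenylalanine enzyme), Cars (cysteine) and Sars (serine) fell by 2.83, 2.81, 2.56 and 2.44 on the log2 scale, and before the factor with the common floor they fell by 0.50 to 0.94.

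Other members kept more of their oocyte level. Fars2 was at 19.6 and 14.7 FPKM in WT 1-cell embryos, 32.2% of its oocyte mean, and Kars (lysine) at 10.9 and 10.6 FPKM, 33.5%. Both fell on the deposited scale (−1.59 and −1.49). Before the factor both rose (0.41, adjusted p = 0.0109, and 0.48, adjusted p = 0.0454), and of these only the call for Fars2 held with the common floor. Lars2 did not pass the test, at 328 and 466 FPKM in WT 1-cell embryos, 90.7% of its oocyte mean (−0.16 ± 0.39, adjusted p = 0.749); before the factor it was higher by 1.90 (adjusted p = 0.00285). Among the 24 members with a mean of at least 5 FPKM in WT oocytes the median change was −2.16, beside −2.06 over 7147 genes above the same level. The 10 mitochondrial genes that passed the test included Vars2, Iars2 and Wars2, which went from at most 2.02 FPKM to the floor, so their falls have no fixed size.

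In 1-cell embryos 17 of 32 synthetase transcripts were higher in KO than in WT and none lower, beside 52.7% of all genes higher and 0.0974% lower. The median difference of the members was 0.58, beside 0.57 over all genes, so on the deposited scale the family as a whole stood where the average gene stood. Before the factor 5 members were higher (7.36% of all genes) and 2 lower (2.26%). The 5 were Rars, Qars, Iars, Dars and Rars2, and the 2 were Kars and Sars. Quantile normalization gave 5 higher and 7 lower (12.8% and 16.4% of all genes), and the common floor of all stages 2 and 2 (4.93% and 1.55%). Of the 7 lower with quantile normalization, 5 were at the floor in all 4 libraries, where no difference was measured. As deposited, 9 in place of 17 were called without WT 1-cell replicate 2, and also 9 without KO 1-cell replicate 2. Libraries did not overlap for 20 members with KO above WT (64.3% of all genes), and before the factor for 9 above (20.7%) and 3 below (14.9%).

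The multisynthetase complex held the 3 largest differences, those of Qars, Rars and Iars. Of its 8 members 6 were higher in KO 1-cell embryos, with a median of 1.20, and 4 of these remained before the factor (52.7% and 7.36% of all genes). Of the 7147 genes that averaged 5 FPKM or more in WT GV oocytes, 5367 were higher as deposited, with a median of 0.87, and 828 before the factor. Rars measured 5.1 and 3.57 FPKM in WT and 23.9 and 32.1 FPKM in KO, a 6.45-fold higher mean (log2 fold change 2.44 ± 0.19 SE, limma adjusted p = 4.169e-05). Both KO libraries were above both WT libraries. Before the factor Rars measured 18.9 and 16.8 FPKM in WT and 55.2 and 58.1 FPKM in KO, 3.17-fold higher (1.61, adjusted p = 0.000139). In KO it stood at 19.8% of its oocyte mean, against 3.3% in WT.

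Qars was at 10.6 and 10.4 FPKM in WT and 45.5 and 91.4 FPKM in KO (2.51 ± 0.34, limma adjusted p = 0.000594). The KO libraries differed 2-fold from each other and both lay above WT. Before the factor the difference was 1.57 (adjusted p = 0.0263), and with the common floor of all stages it lost the call (adjusted p = 0.0578). Iars was at 9.03 and 6.79 FPKM in WT and 26.6 and 40.3 FPKM in KO (1.93 ± 0.21, adjusted p = 0.0002), and its difference before the factor was 1.01 (adjusted p = 0.00196). Dars was at 7.14 and 4.86 FPKM in WT and 16.0 and 23.1 FPKM in KO (1.55 ± 0.23, adjusted p = 0.000831; 0.65 before the factor, adjusted p = 0.0429, and adjusted p = 0.0614 with the common floor). Rars and Iars were the complex members whose calls held on all 3 of these scales.

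Kars went the other way before the factor. Its deposited values overlapped, at 10.9 and 10.6 FPKM in WT and 9.43 and 15.6 FPKM in KO (0.16 ± 0.22, limma adjusted p = 0.665). Before the factor WT held 40.5 and 50.04 FPKM and KO 21.8 and 28.4 FPKM, a difference of −0.83 (adjusted p = 0.0284). Lars rose by 0.86 and Eprs (the joint glutamate and proline enzyme) by 0.54 as deposited, and before the factor neither passed the test, Eprs with the sign turned (−0.40). Mars was at the floor in 3 of 4 libraries.

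Outside the complex, Wars (tryptophan) was at 6.11 and 4.42 FPKM in WT and 12.6 and 28.6 FPKM in KO (1.69 ± 0.35, limma adjusted p = 0.00403), and before the factor it did not pass the test (0.81, adjusted p = 0.151). Tars (threonine) rose by 1.10 ± 0.20 (adjusted p = 0.00217), and its 0.21 before the factor did not pass. Gars (glycine), Hars (histidine), Farsb, Nars, Farsa and Cars rose by 0.61 to 1.08 as deposited. None of these 6 passed before the factor, where Farsb, Nars, Farsa and Cars had the opposite sign. Sars, by contrast, was at 4.91 and 4.15 FPKM in WT and 5.03 and 6.29 FPKM in KO (0.27 ± 0.16, adjusted p = 0.202), and before the factor it was lower in KO, at 18.2 and 19.5 FPKM against 11.6 and 11.4 FPKM (−0.67, adjusted p = 0.0085).

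Of the 14 mitochondrial genes, 3 were higher in KO 1-cell embryos, beside 52.7% of all genes. Rars2 was at 2.28 and 1.19 FPKM in WT and 5.54 and 8.36 FPKM in KO (1.54 ± 0.25, limma adjusted p = 0.00124; 0.92 before the factor, adjusted p = 0.0256, and adjusted p = 0.0642 with the common floor). Fars2 was at 19.6 and 14.7 FPKM in WT and 36.7 and 40.2 FPKM in KO (1.13 ± 0.16, adjusted p = 0.000828), but its 0.15 before the factor did not pass the test, and under quantile normalization its sign turned (−0.03). Tars2 (threonine) differed by 0.37 between values of at most 1.82 FPKM. A further 7 mitochondrial genes did not leave the floor in any of the 4 libraries and could show no difference. Lars2 measured 328 and 466 FPKM in WT and 558 and 803 FPKM in KO without passing the test (0.77 ± 0.39, adjusted p = 0.135).

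**Figure D2:**
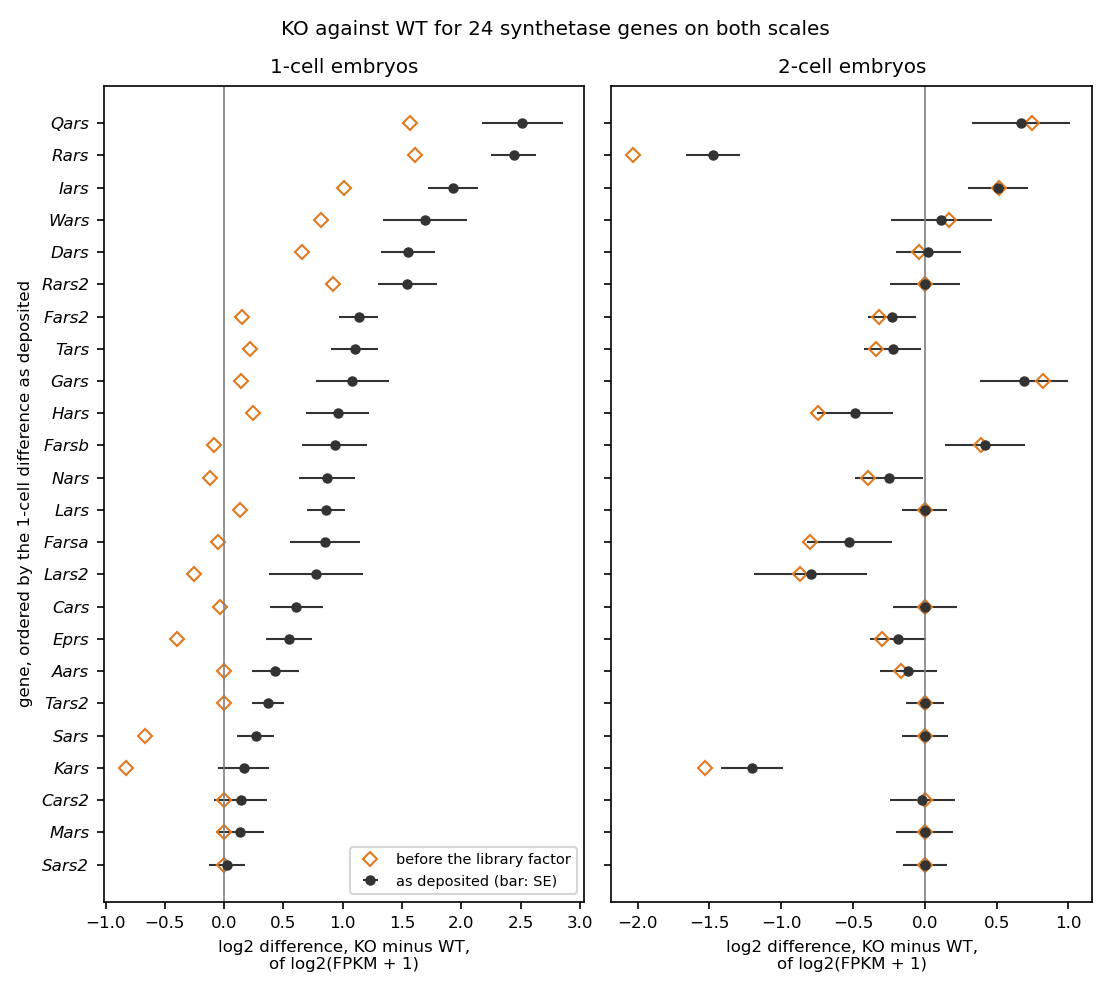
Log2 difference of KO and WT of log2(FPKM + 1) for the 24 synthetase genes that averaged 5 FPKM or more in WT GV oocytes, in 1-cell (left) and 2-cell embryos (right), on the horizontal axes, which differ in range. Black points with SE bars are deposited values and open diamonds are values before the library factor; at the 1-cell stage every diamond of a gene above the floor lies to the left of its point, with Kars at −0.83 and Rars at 1.61, and at the 2-cell stage Rars and Kars are the lowest on both scales.

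From the 1-cell to the 2-cell stage in WT, 12 members fell further and none rose, beside 29% of all genes falling and 9.45% rising. Before the factor 18 were higher (63% of all genes) and 8 lower (16.3%), where the floor of 8.61 FPKM at the 2-cell stage exceeds that of the 1-cell stage, and 11 of the 18 were at their stage's floor in all 4 libraries. With 1 common floor 5 were higher and 6 lower (21% and 14.9%), and with quantile normalization 6 were higher and 12 lower (20% and 26.3% of all genes). Farsb fell most, from 55.8 and 37.5 FPKM to 6.78 and 6.83 FPKM (−2.58 ± 0.28 SE, limma adjusted p = 8.752e-05). At the 1-cell stage it had been at 29.9% of its oocyte mean (−1.75 against WT GV oocytes). Nars, from 16.9 and 12.4 FPKM to 3.06 and 3.16 FPKM (−1.92 ± 0.24, adjusted p = 0.000188), and Eprs, from 6.49 and 5.78 FPKM to 1.1 and 1.54 FPKM (−1.62 ± 0.19, adjusted p = 0.000161), also fell. Wars, Qars, Gars, Sars and Tars fell by 1.32 to 1.63 on the log2 scale. Wars and Sars were at the floor in both WT 2-cell libraries, so their falls have no fixed size on either scale. Farsb, Nars, Wars, Eprs, Sars and Tars also fell before the factor with the common floor, by 0.80 to 1.73.

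Rars did not follow this fall. WT 2-cell embryos held 4.29 and 4.86 FPKM, beside 5.1 and 3.57 FPKM at the 1-cell stage, and the deposited levels did not differ beyond their spread (0.08 ± 0.19, limma adjusted p = 1). Before the factor the WT libraries went from 18.9 and 16.8 FPKM to 36.9 and 39.6 FPKM, a rise of 1.06 (adjusted p = 3.215e-05, and 5.161e-05 with the common floor). Both 2-cell libraries were above both 1-cell libraries on that scale.

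At the 2-cell stage no synthetase was higher in KO than in WT (7.56% of all genes were) and 2 were lower (12% of all genes). By limma, 3 members had an unadjusted p under 0.05. With quantile normalization 5 were higher and 7 lower (23.9% and 19.2% of all genes), and before the factor with the common floor 1 and 7 (11.1% and 18.7%). Of the 5 higher, 2 (Iars2 and Wars2) were at the floor in all 4 libraries, where no difference was measured. Both lower genes belong to the multisynthetase complex. Rars was above the floor in both WT libraries, at 4.29 and 4.86 FPKM, and at the floor of 1 FPKM in both KO libraries (−1.48 ± 0.19 SE, limma adjusted p = 0.000611; −2.03 before the factor, adjusted p = 3.834e-06). Because the KO values are at the floor, the fold has no fixed size. Rars was thus higher in KO at the 1-cell stage and lower in KO at the 2-cell stage on both scales. Kars measured 6.4 and 7.37 FPKM in WT and 2.2 and 2.66 FPKM in KO, 0.352 times the WT mean (−1.20 ± 0.22, adjusted p = 0.00422; −1.53 before the factor, adjusted p = 0.000427). The 2 groups did not overlap for either gene. Both KO libraries were below both WT libraries for 11 of the 32 members (24.7% of all genes) and above them for 4 (18.8%).

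Each library pooled whole embryos, so fewer embryos with the transcript and less of it in each embryo cannot be told apart. Iars was higher in both KO libraries, at 4.21 and 5.08 FPKM in WT and 6.97 and 7.06 FPKM in KO. Its difference did not pass the test as deposited (0.51 ± 0.21, limma adjusted p = 0.147) and did before the factor (0.52, adjusted p = 0.0157). Before the factor 1 member was thus higher (10.6% of all genes) and 3 lower (17.8%), the third being Farsa (−0.80, adjusted p = 0.0322), which was at 1.74 and 2.02 FPKM in WT and at the floor in KO. Qars, at 2.38 and 3.06 FPKM in WT and 3.47 and 6.76 FPKM in KO, did not pass the test (0.67 ± 0.34, adjusted p = 0.261), nor did Gars, at 1.99 and 2 FPKM in WT and 2.95 and 4.9 FPKM in KO (0.69 ± 0.31, adjusted p = 0.183). The libraries of the genotypes overlapped for Dars, at 3.1 and 3.5 FPKM in WT and 3.11 and 3.64 FPKM in KO. Of the 32 members, 16 and 17 were above the floor in the WT libraries and 9 and 11 in the KO libraries. Over all genes 5736 and 6177 were above the floor in WT and 5111 and 4737 in KO.

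**Figure D3:**
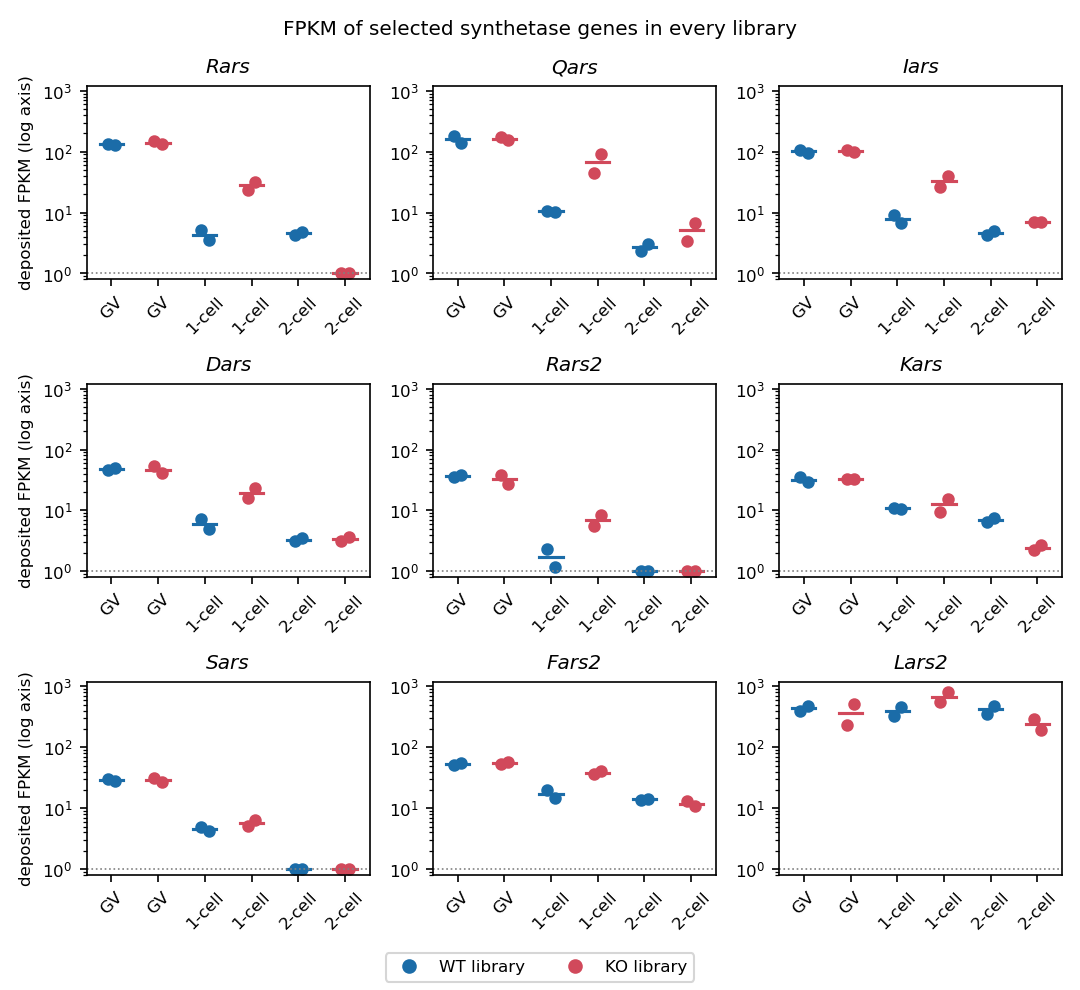
Deposited FPKM of 9 synthetase genes in every library (vertical log axis), with WT in blue and KO in red at each stage on the horizontal axis. Points are libraries, short lines are means of 2 and the dotted line is the floor of 1 FPKM; Rars is above WT in KO 1-cell embryos and at the floor in KO 2-cell embryos, while Lars2 lies between 193 and 803 FPKM in all 12 libraries.

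The steps between stages were compared between genotypes by the difference of the differences. For the step from oocyte to 1-cell embryo this was above 0, a smaller fall in KO, for 12 members and below 0 for none (38.7% and 0.859% of all genes), and before the factor for 3 members, Rars, Iars and Iars2 (5.03% of all genes, with 1.29% below 0). Quantile normalization gave 2 above and 3 below 0 (5.81% and 2.86% of all genes) and the common floor 2 and 0 (2.24% and 0.505%), and without KO 1-cell replicate 1 the deposited count was 19. Rars gave 2.34 ± 0.27 SE (limma adjusted p = 0.000901; 1.51 before the factor, adjusted p = 0.00229) and Iars 1.93 ± 0.30 (adjusted p = 0.00278; 1.01 before the factor, adjusted p = 0.0164). Iars2 was at the floor in all embryo libraries, so its value repeats the oocyte difference. For the step from the 1-cell to the 2-cell embryo the value was below 0 for 13 members and above 0 for none (35.7% and 0.239% of all genes). Of the 13, 2 (Lars and Rars2) were at the floor in every 2-cell library, so their values repeat the 1-cell difference with the sign turned. Before the factor the value for this step was below 0 for 1 member (15.5% of all genes), Rars, and above 0 for 1 (5.43%), Sars. Rars gave −3.64 before the factor (limma adjusted p = 2.986e-06) and −3.92 ± 0.27 as deposited (adjusted p = 2.799e-05). Both KO 2-cell libraries of Rars were at the floor, so its value has no fixed size and its SE and p may be too small. Sars was at the floor in every 2-cell library, so its value repeats the 1-cell difference with the sign turned. Quantile normalization gave 8 above and 6 below 0 (31.4% and 19.6% of all genes) and the common floor 1 and 4 (5.91% and 15.8%). Of the 8 above 0, 5 were at the floor in all 8 embryo libraries. The deposited 13 became 7 without WT 2-cell replicate 1 or 2 or KO 2-cell replicate 1, and 8 without KO 2-cell replicate 2. The 2 steps and the comparisons at each stage share their 1-cell libraries and are not independent.

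Several members share annotated sequence with other genes, and their FPKM may hold reads of both. Iars has a processed pseudogene, Gm4849, that matches 1656 bases at 96.0% identity. Aars and Exosc6 share 1326 bases at their 3′ ends on the same strand. Lars2 matches Gm15564 over 72 bases of its 3′ untranslated region at 98.6% identity. Opposite-strand overlaps of 89 to 2034 bases affect members such as Iars2, Farsb, Cars2, Hars, Vars2, Fars2 and Ears2, and the protocol names no strand-marking step. How the authors' counting divided such reads is not given in the sources used here. Rars, Kars, Qars, Dars and Sars had no match of 95% identity over at least 70 bases. The search covered GENCODE M21 transcripts only, so matches to sequences outside that set were not sought.

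Of 13 genes for partners of the synthetases, among them scaffold and editing proteins, 9 were higher in KO 1-cell embryos and none lower, beside 52.7% of all genes higher, and 1 remained before the factor (7.36%). The list searched for them also named Pars2 and Tarsl2, synthetase genes outside the symbol rule. Eef1e1, the AIMP3 scaffold, measured 19.6 and 12.8 FPKM in WT and 72.9 and 74.8 FPKM in KO (2.15 ± 0.33 SE, limma adjusted p = 0.00107; 1.18 before the factor, adjusted p = 0.0861). Dtd1, which removes D-amino acids from transfer RNA, rose by 1.43 (0.80 before the factor, adjusted p = 0.0132). Aimp1 and Mtfmt, the latter forming the initiator formyl-methionyl transfer RNA of mitochondria, rose by 1.26 and 1.11 as deposited and did not pass before the factor.

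Aimp2, the scaffold that binds Kars and holds the complex together, was the 1 partner that was lower in KO 2-cell embryos (12% of all genes). WT 1-cell embryos held 4.5 and 3.98 FPKM and WT 2-cell embryos 10.2 and 13.3 FPKM, a rise (1.27 ± 0.18 SE, limma adjusted p = 0.000488; 2.39 before the factor, adjusted p = 2.568e-06). KO libraries held 8.01 and 9.64 FPKM at the 1-cell stage and were both at the floor at the 2-cell stage (−2.66 ± 0.18 against WT, adjusted p = 1.64e-05; −3.36 before the factor). Aimp2, Rars and Kars were the complex genes lower in KO 2-cell embryos as deposited (12% of all genes). Rars and Aimp2 were both at the floor there in both libraries, so their folds have no fixed size. Over all 11298 genes, 6187 and 6561 were at the floor in the KO 2-cell libraries. Lars and Mars, also of the complex, were at the floor in the 2-cell libraries of both genotypes and could show no difference.

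Transcripts for the factors that carry charged transfer RNA to the ribosome, and for exchange factors that recharge them, numbered 11. Of these 8 were higher in KO 1-cell embryos (52.7% of all genes) and 1 before the factor (7.36%). Eif2s2, the beta subunit of the initiator-binding factor eIF2, was higher in KO at both embryo stages, at 77.4 and 73.5 against 244 and 260 FPKM in 1-cell embryos (1.73 ± 0.15 SE, limma adjusted p = 5.847e-05) and at 17.4 and 20.99 against 44.3 and 43.8 FPKM in 2-cell embryos (1.16 ± 0.15, adjusted p = 0.000565). Before the factor these differences were 0.71 and 1.13, both called. Eif2s3x, Tsfm and Eif2s1 rose by 1.18 to 1.58 as deposited and none of them passed before the factor. In 2-cell embryos 1 of the 11 was higher and 2 were lower (7.56% and 12% of all genes). Eef1d and Eef1g, subunits of the exchange factor that recharges eEF1A, were lower in KO (−1.01 and −0.89; −1.49 and −1.34 before the factor).

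Of 24 genes of transfer RNA maturation, 13 were higher in KO 1-cell embryos (52.7% of all genes), and before the factor 1 was higher and 1 lower (7.36% and 2.26%). Rpp30, a subunit of RNase P, which trims the 5′ end of transfer RNA, measured 4.63 and 2.51 FPKM in WT and 24.0 and 18.9 FPKM in KO (2.33 ± 0.24 SE, limma adjusted p = 0.000147; 1.55 before the factor, adjusted p = 0.00628). Rpp38 (2.00) and Pop4 (1.29), also of RNase P, and Ssb (1.22), which protects new transfer RNA ends, rose as deposited and did not pass before the factor. In 2-cell embryos 4 of the 24 were lower in KO and none higher (12% and 7.56% of all genes). These were the RNase P genes Rpp25 (−1.75), Rpp14 (−1.31) and Pop7 (−0.79) and the RNA kinase gene Clp1 (−1.01). Rpp25 was at the floor in every oocyte and 1-cell library, and it rose to 6.14 and 5.34 FPKM in WT 2-cell embryos. It was at the floor in both KO 2-cell libraries, so its fold has no fixed size.

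Synthetase genes are known targets of ATF4, the transcription factor that answers amino acid shortage through sites called CARE in their promoters. Of 24 genes of this response, 12 were higher in KO 1-cell embryos and none lower (52.7% and 0.0974% of all genes), and none of the 24 was called before the factor (2 had an unadjusted p under 0.05 by limma). The highest were Atf4 (1.07), the transporter genes Slc3a2 (1.04) and Slc7a11 (1.03) and the folate enzyme gene Mthfd2 (1.00). In 2-cell embryos 1 was higher, Nupr1 (0.70), and 5 were lower in KO (7.56% and 12% of all genes). Atf4 measured 9.98 and 13.3 FPKM in WT and 3.35 and 2.43 FPKM in KO (−1.70 ± 0.32 SE, limma adjusted p = 0.0052; −2.04 before the factor, adjusted p = 0.000442). Psat1, for serine synthesis, was at 4.25 and 4.82 FPKM in WT and at the floor in KO (−1.47 ± 0.06, limma adjusted p = 7.306e-07). Because its KO values are at the floor, the fold has no fixed size, and its SE and p may be too small. Gpt2 (−0.69) and Trib3 (−0.64) were lower too.

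Promoters of 24 synthetase genes were matched in RefSeq (build GRCm38.p6), in windows from 250 bases before to 50 after the transcript start. The motif TGATGNAA, searched on both strands as a short form of CARE, was found in 4 of 24 (16.7%), Aars, Gars, Iars and Tars, and in 4.51% of 27025 genes. The E-box CACGTG was found in 5 (20.8%, against 8.09% of genes), CCAAT in 11 (45.8%, against 41.1%) and the NRF1 motif in none (against 1.07%). The 250 bases before the start of Gars and Tars are shown with the motif in capitals, which reads as its reverse complement in both. They lie at chr6:55037751-55038000 on the plus strand and chr15:11399659-11399908 on the minus strand, with the match starting 30 and 15 bases before the transcript start.
Gars: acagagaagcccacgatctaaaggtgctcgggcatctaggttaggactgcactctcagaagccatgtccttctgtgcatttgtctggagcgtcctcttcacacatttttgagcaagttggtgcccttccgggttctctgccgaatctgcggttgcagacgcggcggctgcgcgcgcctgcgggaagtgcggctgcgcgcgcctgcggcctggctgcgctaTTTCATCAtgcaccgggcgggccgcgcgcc
Tars: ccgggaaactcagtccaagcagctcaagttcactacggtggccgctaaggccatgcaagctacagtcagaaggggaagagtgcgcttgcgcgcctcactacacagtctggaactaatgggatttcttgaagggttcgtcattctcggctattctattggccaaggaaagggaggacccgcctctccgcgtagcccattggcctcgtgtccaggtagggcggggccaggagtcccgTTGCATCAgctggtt
As deposited, the 4 genes with the motif did not pass the test between KO and WT 2-cell embryos. Their log2 differences were 0.69 (Gars), 0.51 (Iars), −0.22 (Tars) and −0.11 (Aars). Before the factor only Iars passed, higher in KO (0.52, limma adjusted p = 0.0157, beside 10.6% of all genes higher). With the common floor Iars was higher and Aars lower (11.1% and 18.7% of all genes). With quantile normalization Gars and Iars were higher and Aars and Tars lower (23.9% and 19.2%). In 1-cell embryos Gars, Iars and Tars were higher in KO as deposited (52.7%), and before the factor only Iars was (7.36%). Neither Rars nor Kars was among the 4 genes with the motif, and Rars had no matched promoter. A match describes these letters only.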

How the data were processed

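FPKM were deposited by the authors in 1 table of 12 libraries, made with TopHat2 2.1.1, Cufflinks 2.2.1 and build mm9 per the submitters' processing notes. Per the labels' protocols ERCC spike-in RNA was added, and the table held 0 ERCC entries. It held 11298 complete genes, and 1 incomplete entry was left out. FPKM carry no counts, so the depth is unknown and intervals from counts cannot be had. Library factors were recovered as the constant that makes all values of a column multiples of 6-digit numbers (tolerance 0.01 of the last digit).

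All genes were fitted as log2(FPKM + 1) with limma 3.58.1 (intensity trend, R 4.3.3), all 12 libraries in 1 fit without covariates, 7 contrasts, Benjamini-Hochberg adjustment over all genes within a contrast, and calls at an adjusted p under 0.05. Differences on this scale understate changes of low genes. No filter was applied to the fit. A group with both libraries at the floor adds no spread, so SE and p of genes with such groups may be too small. Values of 1 low member are not reported here. Values after ± are SE. The fit was tested on simulated data. Full statistics were given for at most 8 called members with the largest change per direction and contrast, and names in other lists for at most 4. Alternatives were both scales before the factor, quantile normalization, a pseudocount of 0.1, a mean of at least 5 FPKM, a replicate block and leaving out each library. Shared sequence was sought with blastn 2.17.0 (95% identity, 70 bases). Members and lists were chosen with earlier results of these data known.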

Additional observations from a re-analysis of the deposited data

Results flagged for a closer look

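The change from one stage to the next differed between genotypes, by the test of that difference itself in limma, for the members named here, at most 8 for each step. For the step from GV oocyte to 1-cell embryo the KO minus WT difference of the log2 changes was 2.48 for Qars (adjusted p = 0.00677), 2.34 for Rars (0.000901), 1.93 for Iars (0.00278), 1.76 for Wars (0.0245), 1.74 for Rars2 (0.00731), 1.60 for Dars (0.00718), 1.23 for Tars (0.0117) and 1.10 for Hars (0.0453). For the step from the 1-cell to the 2-cell embryo it was −3.92 for Rars (2.799e-05), −1.84 for Qars (0.0178), −1.58 for Wars (0.0357), −1.54 for Rars2 (0.00909), −1.53 for Dars (0.00649), −1.44 for Hars (0.0171), −1.42 for Iars (0.00658) and −1.38 for Farsa (0.0311). Before the factor Rars and Iars remained called for the earlier step and Rars for the later one. Rars2 was at the floor in every 2-cell library, so its later value repeats the 1-cell difference with the sign turned. Both KO 2-cell libraries of Rars, Hars and Farsa were at the floor, as were both WT ones of Wars. The later values of these genes thus have no fixed size.

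The calls that ended when 1 library was left out were those of Hars and Wars for both steps and of Qars and Farsa for the later one. For the earlier step, leaving out WT GV replicate 1 gave 0.72 for Hars (adjusted p = 0.134) and 1.56 for Wars (0.0967). For the later step, leaving out WT 2-cell replicate 2 gave −1.71 for Qars (0.0883), −1.58 for Wars (0.122), −1.39 for Hars (0.0806) and −1.31 for Farsa (0.12). The same calls also ended without several other libraries, and no sign changed.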

How the results depend on the processing

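Most counts of called synthetases differed between the deposited values, those before the factor and quantile normalization. The values before the factor also carry a raised floor, so the factor and the floor were changed together, and the cause was not tested. Counts are given as higher and lower. Before the factor with 1 floor per stage, KO against WT gave 5 and 2 (17 and 0 as deposited) at the 1-cell stage and 1 and 3 (0 and 2) at the 2-cell stage. WT 1-cell against GV gave 11 and 11 (0 and 28), WT 2-cell against 1-cell 18 and 8 (0 and 12), and the differences of the 2 steps between genotypes 3 and 0 (12 and 0) and 1 and 1 (0 and 13). With 1 floor for all libraries, chosen after seeing the data, the 6 comparisons in this order gave 2 and 2, 1 and 7, 2 and 8, 5 and 6, 2 and 0, and 1 and 4. With quantile normalization they gave 5 and 7, 5 and 7, 10 and 9, 6 and 12, 2 and 3, and 8 and 6. In GV oocytes the 1 lower call became 0 with quantile normalization, with the common floor and with a mean of at least 5 FPKM, a filter that also left 16 lower in WT 1-cell embryos. With quantile normalization 25 of the 85 member values called over 7 comparisons changed sign, among them Fars2 (−0.034 in 1-cell KO against WT) and Wars (0.16 for the later step), and 29 lost the call. With the common floor 14 changed sign and 49 lost the call.

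Leaving out 1 library at a time gave 9 to 20 higher at the 1-cell stage, 0 to 1 higher and 2 to 3 lower at the 2-cell stage, and 0 to 2 higher and 1 to 3 lower in GV oocytes. It gave 28 to 31 lower in WT 1-cell embryos, 0 to 1 higher and 8 to 13 lower in WT 2-cell embryos, 8 to 19 higher and 0 to 2 lower for the earlier step, and 7 to 17 lower for the later step. Where a group kept 1 library, it was assumed to vary like the others. Of the 85, 31 kept direction and call before the factor with the stage floor, 36 lost the call and 18 changed sign; a pseudocount of 0.1 ended 1 call.

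With the replicate block, 14 members were higher in KO 1-cell embryos, 2 lower in KO 2-cell embryos and 28 and 9 lower at the WT steps, and 76 of the 85 calls held with no sign change. The replicate differences of the 2 genotypes correlated weakly or negatively (r = 0.17 at the GV, −0.08 at the 1-cell and −0.25 at the 2-cell stage). The labels do not say whether the numbers pair the samples, and these correlations cannot decide it. With the KO 2-cell numbers crossed, 3 were lower. Without counts, the floor limits what can be seen of genes near 1 FPKM.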
